A study of Mus musculus with 6 samples.

Results

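The genes examined here carry out antigen presentation through the major histocompatibility complex (MHC), and they were read as 10 named rows among the 17512 genes of a single RNA-seq count table. Of the 10, 6 belong to the class I pathway (B2m, H2-K1, H2-D1, Tap1, Tap2 and Tapbp) and 4 to the class II pathway (H2-Aa, H2-Ab1, H2-Eb1 and Cd74), and all 10 had a row. The cells were primary mouse embryonic fibroblasts (pMEFs) on a C57bl6 background, grown from mid-gestation embryos after removal of the internal organs, in serum-containing medium and with no treatment named in the labels. There were 3 lines with intact Hat1 (HAT1 WT, lines 36, 47 and 78) and 3 lines with a homozygous Hat1 knockout (HAT1 KO, lines 33, 41 and 72), HAT1 being the enzyme that acetylates newly made histones before they enter chromatin. The litter, the sex and the exact age of each line's embryo are not given, the knockout was of the whole animal, and each line counted as 1 replicate, so p-values measure the spread between lines. The comparisons below ask how much RNA of each pathway the lines held, and whether the genotypes differed for class I and for class II.

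MHC class I molecules are made by nearly all nucleated cells. A heavy chain, such as those encoded by H2-K1 and H2-D1, pairs with beta-2 microglobulin (B2m) and holds a peptide that was cut in the cytosol and carried into the endoplasmic reticulum by the transporter TAP1-TAP2, with tapasin (Tapbp) bridging transporter and heavy chain. MHC class II molecules, pairs of an alpha and a beta chain, are made mainly by dendritic cells, B cells and macrophages, where the invariant chain CD74 guards the groove until the complex reaches the endosome. Fibroblasts are known to carry class I at rest and to make class II when exposed to interferon gamma.

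A few facts of the libraries bear on all the values. Total counts lay between 67720628 and 98786746 per library. Hat1 itself was measured at 17.4, 23.04 and 20.1 CPM (counts per 1e6 counts of the library, after scaling by TMM, the trimmed mean of M-values) in WT lines 36, 47 and 78 and at 10.2, 10.0 and 10.3 CPM in KO lines 33, 41 and 72. It fell by 0.99 on the log2 scale (SE 0.119, edgeR quasi-likelihood test, adjusted p = 0.0376), so RNA mapped to the gene remained in every KO line. Summed counts of 4 Y-linked genes were 13788 and 12841 in WT lines 36 and 47, 231 in WT line 78 and between 4 and 8 in the KO lines, so genotype and this sex-linked pattern cannot be told apart except through WT line 78. Of 8 fibroblast markers, none was at 0 in any line, and their summed level was 58290 to 66556 CPM in WT and 41848 to 75252 CPM in KO lines, lowest in KO line 72. The markers of macrophages, 13 genes with none at 0 in any line, summed to 2978 to 3474 CPM in WT lines and 1532 to 2025 CPM in KO lines, and 7 of them fell at an adjusted p under 0.05, a call that 0.528% of the 14773 tested genes met. In bulk RNA, fewer cells of a type and less RNA per cell cannot be told apart.

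The pMEFs held abundant class I RNA and almost no class II RNA. B2m was the highest of the 10 genes, at 358 ± 43.5 CPM in WT and 302 ± 31.8 CPM in KO lines (mean ± SD, n = 3 lines), and the lowest class I member, Tap2, still stood at 16.4 ± 0.987 and 13.4 ± 0.721 CPM. The highest class II member, Cd74, reached 1.16 ± 0.653 CPM in WT and 2.45 ± 1.55 CPM in KO lines. The chain genes H2-Aa, H2-Ab1 and H2-Eb1 stayed below 0.5 CPM in every line, and every class I value exceeded every class II value in the same line.

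**Figure D1:**
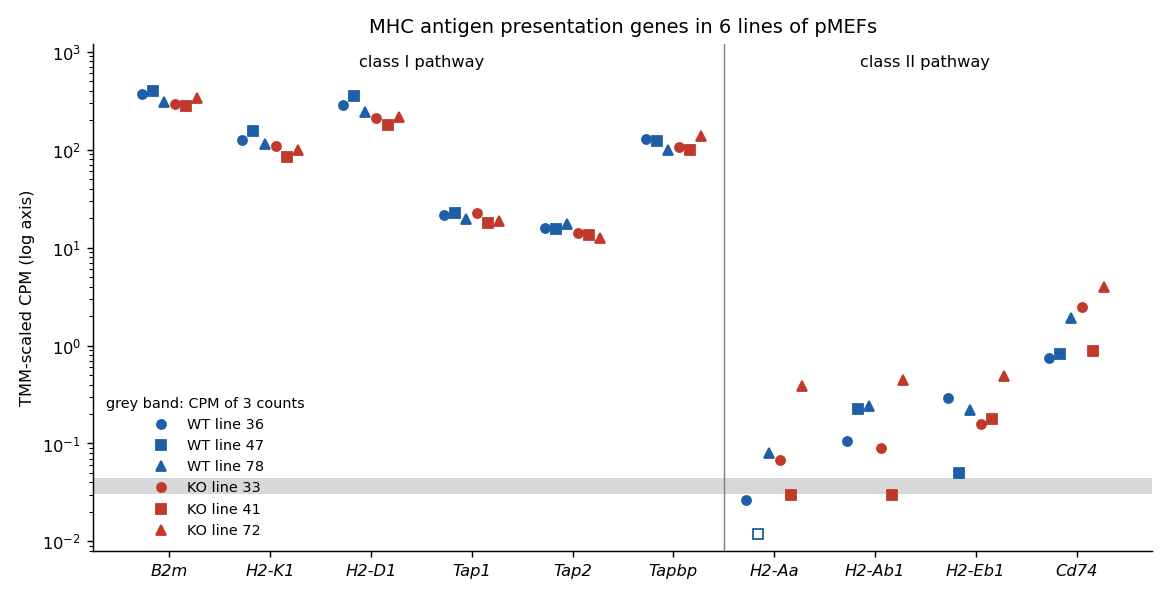
TMM-scaled CPM (log axis) of the 10 genes in the 3 WT (blue) and 3 KO (red) lines; each point is 1 line, the grey band is the CPM worth of 3 counts in the different libraries (0.0303 to 0.0444), and the open square marks a count of 0, drawn at an arbitrary height. Class I members lay between 12.6 and 395 CPM, and class II members at or below 3.97 CPM.

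Between genes, levels are compared per kilobase of exon, as CPM per kb. In WT lines the order was B2m (416 ± 50.6 CPM per kb), H2-D1 (114 ± 22.4), H2-K1 (44.6 ± 7.31), Tapbp (32.1 ± 4.34), Tap2 (4.34 ± 0.261), Tap1 (3.88 ± 0.285), Cd74 (0.689 ± 0.389), H2-Eb1 (0.0966 ± 0.0641), H2-Ab1 (0.0743 ± 0.0288) and H2-Aa (0.00942 ± 0.0108). The KO lines kept this order at the top, with B2m at 351 ± 37.0, H2-D1 at 78.7 ± 7.72, H2-K1 at 33.3 ± 4.07 and Tapbp at 31.4 ± 5.55 CPM per kb, whereas Tap1 (3.60 ± 0.480) stood beside Tap2 (3.53 ± 0.191). The order of Tap1 and Tap2 changed from line to line, as did that of H2-Eb1 and H2-Ab1 and, among KO lines, that of H2-K1 and Tapbp, so these neighbors did not differ beyond their spread. B2m and H2-D1 stood first and second in every line.

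The class I genes that encode the presented complex itself, the heavy chains and B2m, were lower in the KO means. H2-D1 had 288, 355 and 240 CPM in WT lines 36, 47 and 78 and 212, 180 and 216 CPM in KO lines 33, 41 and 72. Every KO line was below every WT line, and the KO mean was 69.0% of the WT mean. The log2 difference was -0.53 (SE 0.157, 95% interval -0.91 to -0.16), with an unadjusted p of 0.0133 and an adjusted p of 0.218 in the edgeR quasi-likelihood test, so it did not pass the threshold of 0.05.

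H2-K1 followed the same order of lines within the WT group. It had 124, 155 and 113 CPM in WT lines 36, 47 and 78 and 109, 85.1 and 100 CPM in KO lines 33, 41 and 72, again without overlap, although WT line 78 and KO line 33 were close. Its log2 difference was -0.42 (SE 0.145, 95% interval -0.77 to -0.07, edgeR adjusted p = 0.277), and the KO mean was 74.8% of the WT mean. The exact permutation test of each of these genes gave a two-sided p of 0.1, the smallest that 3 lines against 3 allow. The ratio of H2-D1 to H2-K1, both per kb, was 2.41 to 2.63 in WT lines and 2.22 to 2.47 in KO lines, and these ranges overlapped.

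B2m, the light chain shared by class I molecules, had 369, 395 and 310 CPM in the WT lines and 292, 276 and 337 CPM in the KO lines. KO line 72 lay above WT line 78, so the groups overlapped. The log2 difference was -0.25 (SE 0.122, 95% interval -0.54 to 0.05, edgeR adjusted p = 0.417). The summed heavy chains per unit of B2m, both per kb, stood at 0.359, 0.414 and 0.365 in WT lines and 0.352, 0.307 and 0.301 in KO lines, without overlap.

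Of the peptide transporter and its bridge to the heavy chain, Tap2 alone separated the lines by genotype. It had 16.0, 15.6 and 17.5 CPM in WT lines 36, 47 and 78 and 14.0, 13.5 and 12.6 CPM in KO lines 33, 41 and 72, with every KO line lower. Its log2 difference was -0.30 (SE 0.0904, 95% interval -0.51 to -0.08, edgeR unadjusted p = 0.0158 and adjusted p = 0.229). Its partner Tap1 had 21.5, 22.7 and 19.6 CPM in WT and 22.7, 17.8 and 18.7 CPM in KO lines. The highest Tap1 value of all was in KO line 33, the groups overlapped, and the log2 difference was -0.11 (SE 0.12, 95% interval -0.40 to 0.18, edgeR adjusted p = 0.731). Tapbp had 128, 123 and 98.7 CPM in WT and 107, 98.3 and 137 CPM in KO lines. Its highest and lowest values were both in KO lines, and its log2 difference was -0.03 (SE 0.156, 95% interval -0.41 to 0.34, edgeR adjusted p = 0.941).

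By these tests, 0 of the 9 members that passed the filter on low counts were called at an adjusted p under 0.05 in either direction, against 0.528% of all tested genes, none of which was higher in KO lines. At an unadjusted p under 0.05, 3 of the 9 were lower in KO lines, against 8.77% of all tested genes, and 0 of the 9 were higher, against 5.88%. Under the DESeq2 Wald test 1 member passed, H2-D1, with an adjusted p of 0.0419 and a log2 difference of -0.53; over all alternatives to the fit its adjusted p ran from 0.0419 to 0.597. That test called 5.88% of all tested genes. All KO lines were below all WT lines for 3 of the 9, against 12.4% of all tested genes, and above them for 0 of the 9, against 9.59%. None of the 9 combined an unadjusted p under 0.05 with a 1.5-fold lower mean in KO lines, the rule of the study, against 4.62% of all tested genes, or with a 1.5-fold higher one, against 1.5%.

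WT line 78, the only WT line with the KO lines' low Y-linked counts, had the lowest WT value of H2-D1, H2-K1, B2m, Tap1 and Tapbp. When a term for Y-linked RNA was added to the model, so that the KO lines were set against WT line 78, the log2 difference of H2-D1 was -0.24 (SE 0.168), that of H2-K1 -0.21 (SE 0.185) and that of B2m -0.04 (SE 0.140). By the rule of an unadjusted p under 0.05, 1 of the 9 members was then lower, Tap2 (-0.39, SE 0.120, edgeR adjusted p = 0.347), against 7.03% of all tested genes. The macrophage marker sum was lowest among WT lines in the same line, 2978 against 3460 and 3474 CPM, and under that term the macrophage list had a median log2 difference of -0.68, with 9 of 13 lower at an unadjusted p under 0.05 and 0 at an adjusted one. The part of macrophage RNA in the class I values was not tested.

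**Figure D2:**
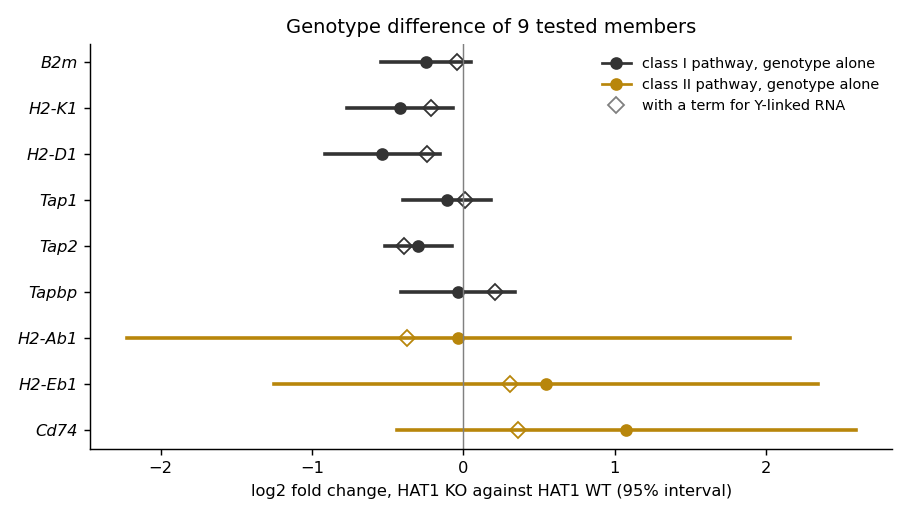
Log2 fold change of HAT1 KO against HAT1 WT for the 9 tested members, with the 95% interval of the edgeR fit with genotype alone (filled circles and bars) and the estimate with a term for Y-linked RNA (open diamonds). The class I intervals are narrow and those of H2-D1, H2-K1 and Tap2 end below 0, whereas the class II intervals, such as -0.44 to 2.59 for Cd74, span 0.

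The class II members gave few counts and no direction that the lines shared. H2-Aa, an alpha chain, had 2, 0 and 8 counts in WT lines 36, 47 and 78 and 6, 2 and 30 counts in KO lines 33, 41 and 72, which left it under the filter and untested. A count of 0 allows up to 3 counts, which is 0.0373 CPM in WT line 47, and the 2 counts of WT line 36 and KO line 41 are under that floor too. Of the 48 counts of H2-Aa in all, 30 came from KO line 72.

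H2-Ab1, a beta chain, was counted 8, 18 and 24 times in WT lines 36, 47 and 78 and 8, 2 and 34 times in KO lines 33, 41 and 72. The KO lines enclosed the whole WT range, and the log2 difference was -0.03 with a wide 95% interval of -2.22 to 2.16 (edgeR adjusted p = 0.989). H2-Eb1, the other beta chain, had 22, 4 and 22 counts in WT and 14, 12 and 38 counts in KO lines, with a log2 difference of 0.55 (SE 0.742, 95% interval -1.25 to 2.35, edgeR adjusted p = 0.779). With these counts and this spread between lines, neither a halving nor a doubling of these chains could be detected, since both lie inside the intervals. All 17 counts above 0 of the 3 chain genes were even (2 to 38 counts), against 75.2% of all counts from 2 to 38 in the table, so the number of sequenced fragments behind them may be smaller than the counts.

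Cd74, the invariant chain, lies on chromosome 18 and was the best measured of the class II genes. It had 56, 66 and 189 counts in WT lines 36, 47 and 78 and 223, 59 and 306 counts in KO lines 33, 41 and 72, which is 0.742, 0.820 and 1.91 CPM against 2.504, 0.873 and 3.97 CPM. KO line 41 was at the level of WT lines 36 and 47, while WT line 78 lay near KO line 33. The log2 difference was 1.08 (SE 0.627, 95% interval -0.44 to 2.59, edgeR adjusted p = 0.484). It was 0.56 without KO line 72, 1.48 without KO line 41 (unadjusted p = 0.0294) and 0.36 with the Y-linked term. Per kb, Cd74 exceeded the sum of the 3 chains in all 6 lines, by 2.23-fold in WT line 36 up to 11.2-fold in KO line 33.

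KO line 72 held the highest value of all 4 class II members. It was also highest for Itgax, an integrin of dendritic cells and some macrophages, at 5.04 CPM against 1.42 to 2.43 CPM in the other lines. The dendritic cell receptor Xcr1 was highest there too, at 0.505 CPM against 0.0497 to 0.222 CPM. The dendritic cell factor Zbtb46 was lowest there, at 1.19 CPM against 3.15 to 4.02 CPM, and Clec9a had a count of 0. The summed level of the 4 dendritic cell markers analysed was 5.10 to 6.36 CPM in WT and 4.75 to 6.74 CPM in KO lines. The macrophage sum was lowest in KO line 72, at 1532 CPM. Markers of B cells (4 analysed, each at 0 in at least 1 line) summed to at most 0.251 CPM in any line. The part of such cells in the class II values was not tested.

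**Figure D3:**
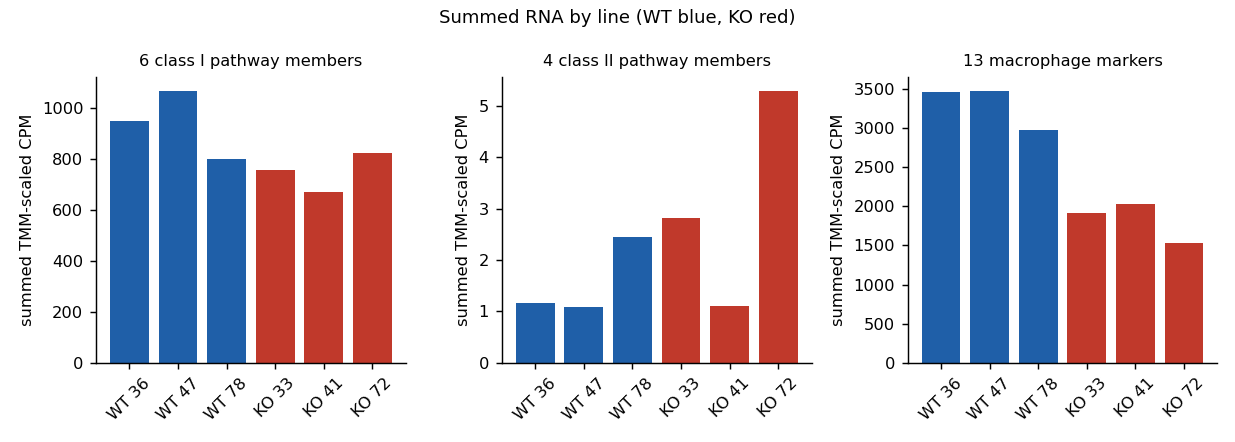
Summed TMM-scaled CPM by line (linear axes from 0) of the 6 class I members, the 4 class II members and the 13 macrophage markers, WT in blue and KO in red; each bar is 1 line and carries no error bar. The class I sum was 799 to 1066 CPM in WT and 671 to 822 CPM in KO lines, the class II sum 1.09 to 2.46 and 1.11 to 5.29 CPM, and the macrophage sum did not overlap between genotypes.

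Set against each other, class I heavy chain RNA exceeded class II chain RNA by 2 to 3 orders of magnitude in every line. The sum of H2-K1 and H2-D1 was 154, 190 and 132 CPM per kb in WT lines 36, 47 and 78 and 119, 98.8 and 118 CPM per kb in KO lines 33, 41 and 72. The sum of H2-Aa, H2-Ab1 and H2-Eb1 was 0.198, 0.113 and 0.230 CPM per kb in WT and 0.134, 0.111 and 0.527 CPM per kb in KO lines. The ratio of class I to class II was therefore 776, 1689 and 572 in WT and 893, 893 and 224 in KO lines. On the log2 scale it was 9.83 ± 0.81 in WT and 9.14 ± 1.15 in KO lines, and 2 KO lines lay within the WT range with KO line 72 below it. These ratios rest on 16 to 102 chain counts per line.

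The classes also differed in how their members stood between genotypes, as a description of members chosen with results of these data known. All 6 class I members had a log2 difference below 0, with a median of -0.27, against a median of 0.0085 and 48.5% below 0 over all tested genes. Of the 3 class II members tested, 1 was below 0, and the median was 0.55. Leaving out each line in turn gave class I medians from -0.29 to -0.22 and class II medians from -0.16 to 0.84, the lowest without KO line 72. With the Y-linked term 4 of the 6 class I members were below 0 and their median was -0.13. The difference between the classes was not tested.

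On chromosome 17 of the GRCm38 assembly (GENCODE M21), 8 of the members lie within 1352 kb, from the start of Tapbp at position 33915899 to the end of H2-D1 at 35267499. H2-K1 (33996017 to 34000347), Tap1 (34187553 to 34197225), Tap2 (34203527 to 34216321), H2-Ab1 (34257689 to 34269419), H2-Aa (34282744 to 34287823) and H2-Eb1 (34305867 to 34316674) lie between them in this order, so the class II chains sit between the class I heavy chains. Of the 61 other genes tested in this stretch, 29 had a log2 difference below 0, against 48.5% of all tested genes, and the median was 0.02. At an unadjusted p under 0.05, 7 were lower and 4 higher, against 8.77% and 5.88% of all tested genes. None passed the adjusted threshold, against 0.528%. B2m lies apart, on chromosome 2 (122147686 to 122153083).

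The sequences before the RefSeq starts of the members (GRCm38.p6, 250 bases) are shown for the heavy chains and B2m, the parts of the presented class I complex, and for H2-Aa as the class II counterpart. MHC promoters of both classes are known for a shared module whose X box and Y box bind RFX, CREB and NF-Y proteins and recruit NLRC5 at class I genes and CIITA at class II genes. Capitals mark TGACG followed after 18 to 22 bases by ATTGG, as in the X2 and Y boxes, a spacing set after these sequences were seen, and in the heavy chains also the reverse complement of GAANNGAAA (an interferon response-type site).
H2-K1, chr17:34000348-34000597, minus strand: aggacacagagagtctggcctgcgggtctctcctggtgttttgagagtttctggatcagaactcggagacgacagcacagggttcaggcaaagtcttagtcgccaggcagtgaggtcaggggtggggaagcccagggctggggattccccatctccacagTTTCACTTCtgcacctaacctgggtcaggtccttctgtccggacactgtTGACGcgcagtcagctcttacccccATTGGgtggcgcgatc
H2-D1, chr17:35262844-35263093, plus strand: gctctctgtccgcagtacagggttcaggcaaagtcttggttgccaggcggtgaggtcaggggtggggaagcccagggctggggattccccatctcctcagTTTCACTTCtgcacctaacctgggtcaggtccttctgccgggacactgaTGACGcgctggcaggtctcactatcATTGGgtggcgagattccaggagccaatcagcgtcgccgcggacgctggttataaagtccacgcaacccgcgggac
B2m, chr2:122147437-122147686, plus strand: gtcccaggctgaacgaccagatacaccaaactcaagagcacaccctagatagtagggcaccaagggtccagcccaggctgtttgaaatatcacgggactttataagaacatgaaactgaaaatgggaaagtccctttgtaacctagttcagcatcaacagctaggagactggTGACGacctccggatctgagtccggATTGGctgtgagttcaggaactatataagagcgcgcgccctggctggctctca
H2-Aa, chr17:34287824-34288073, minus strand: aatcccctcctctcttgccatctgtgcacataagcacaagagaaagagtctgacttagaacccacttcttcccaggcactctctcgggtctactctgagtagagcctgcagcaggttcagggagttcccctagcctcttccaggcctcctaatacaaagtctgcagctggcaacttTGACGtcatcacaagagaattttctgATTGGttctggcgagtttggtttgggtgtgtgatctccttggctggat

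The TGACG and ATTGG pair, searched on both strands, was present before the starts of all 4 genes shown, with a gap of 20 bases in the class I genes and 21 bases in H2-Aa, and in 81 of 32851 RefSeq windows of the same length (0.247%). No such pair in these exact letters stood in the windows of Tap1, Tapbp and H2-Eb1, and boxes with other letters were not searched for. The H2-Eb1 window holds tgatgctggactcctttgatgctgattgg, with tgatg where the search needs TGACG. The Tapbp window (33919228 to 33919477) lies inside its annotated gene, which starts at 33915899. GAANNGAAA in these exact letters (6.31% of windows) was found before H2-K1 and H2-D1 and not in the other windows searched. The B2m window holds gaaactgaaa, a similar string that this search does not match. The ATTGG letters alone occur in 33.8% of windows. The windows of H2-K1 and H2-D1 were identical at 166 of 190 aligned bases (87.4%), whereas other pairs among these genes matched at 35% or less, and an annotated GENCODE transcript of H2-D1 begins upstream of its window. Windows were found for 7 of the 10 members.

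Other genes of the pathways were read from lists of textbook members. The counts of every list below stand against these shares of all tested genes with genotype alone. At an unadjusted p under 0.05, 8.77% were lower and 5.88% higher, 0.528% passed the adjusted threshold, and 48.5% had a log2 difference below 0. Among 13 tested class I heavy chain genes and relatives outside the members, all 13 had a log2 difference below 0 (median -0.54), 4 were lower at an unadjusted p under 0.05 and none passed the adjusted threshold. Hfe, a relative that regulates iron uptake, had 26.6, 25.6 and 23.9 CPM in WT lines and 17.4, 13.3 and 15.1 CPM in KO lines (log2 difference -0.73, SE 0.118, edgeR adjusted p = 0.0723). H2-M3, which presents formylated peptides, was at 6.44 to 7.49 CPM in WT and 2.09 to 4.35 CPM in KO lines (-1.20, SE 0.279, edgeR adjusted p = 0.149). Also without overlap were Fcgrt, the neonatal Fc receptor (-0.40, SE 0.119), and Mr1, which presents vitamin B metabolites (-0.44, SE 0.139). H2-T23, the ligand of an inhibitory receptor on natural killer cells and named after its values were seen, overlapped between genotypes (24.4 to 44.99 against 14.0 to 36.2 CPM). With the Y-linked term 9 of the 13 stayed below 0 (median -0.44), Hfe at -0.65 and H2-M3 at -1.06 among them, while H2-Q7 (0.51), H2-T24 (0.24), H2-T23 (0.026) and H2-T22 (0.0072), named after their values were seen, were above 0.

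Genes that supply and load class I peptides showed no common direction, with a median log2 difference of -0.08 over 11 tested. The immunoproteasome subunit Psmb9 was the only one lower at an unadjusted p under 0.05, with 2.78, 2.93 and 2.79 CPM in WT and 2.32, 1.83 and 1.54 CPM in KO lines (log2 difference -0.58, SE 0.207, edgeR adjusted p = 0.293). With the Y-linked term it stood at -0.55 (SE 0.307), and the median of the 11 was -0.03. The other immunoproteasome subunits, Psmb8 (-0.30, SE 0.207) and Psmb10 (-0.22, SE 0.107), overlapped between genotypes. Psmb9 lies head to head with Tap1 and shares 212 exonic bases with it on the opposite strand. The chaperone Calr was higher in every KO line, 1232 to 1366 against 1088 to 1199 CPM, with a log2 difference of 0.15 (SE 0.0853, edgeR adjusted p = 0.486).

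The constitutive proteasome subunits that the immunoproteasome replaces, with the activator Psme3, had log2 differences above 0 in 4 of 4 genes (median 0.20), and 2 were higher at an unadjusted p under 0.05. These were Psmb7, at 64.0 to 76.4 CPM in WT and 81.8 to 91.1 CPM in KO lines (0.24, SE 0.0919), and Psme3, at 97.3 to 100 against 107 to 115 CPM (0.16, SE 0.0589), with adjusted p-values of 0.314 and 0.305 in the edgeR test. Neither was past that rule without WT line 78, KO line 33 or KO line 41 or with the lane in the model. Psmb5 (0.32, SE 0.269) and Psmb6 (0.11, SE 0.089) overlapped between genotypes. With the Y-linked term the log2 differences were 1.07 for Psmb5, 0.41 for Psmb7, 0.28 for Psmb6 and 0.18 for Psme3 (median 0.35). That term sets the KO lines against WT line 78, where Psmb5 had 24.9 CPM, against 50.3 and 49.9 CPM in WT lines 36 and 47.

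Of the genes that prepare class II cargo, the lysosomal enzymes were abundant, whereas chains of the peptide editor and of its modulator were not. The editor's H2-DMb1 stood at 2.51 to 3.63 CPM and H2-DMb2 at 0.222 to 0.571 CPM, and the modulator's H2-Ob at 0.0224 to 0.0795 CPM. Lgmn, an asparagine endopeptidase, had 409, 427 and 363 CPM in WT and 278, 207 and 218 CPM in KO lines (log2 difference -0.77, SE 0.134, edgeR adjusted p = 0.0809). Ctss, the cathepsin that trims the invariant chain, had 250, 260 and 209 CPM in WT and 158, 165 and 144 CPM in KO lines (-0.62, SE 0.106, edgeR adjusted p = 0.0775). Both were lower at an unadjusted p under 0.05, as 2 of the 7 tested genes of this list. Both are also made by macrophages, whose markers were lower in the same lines, and the part of macrophage RNA in their values was not tested. Ctsl, another cathepsin, overlapped between genotypes (-0.095, SE 0.196) and was highest in KO line 72, at 665 CPM. The reductase Ifi30 (0.28, SE 0.202) and H2-DMa, a chain of the peptide editor (-0.15, SE 0.235, 2.38 to 4.19 CPM in all lines), overlapped between genotypes.

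Among 13 regulators of MHC genes, 4 were lower and 1 was higher at an unadjusted p under 0.05. Spi1, the myeloid factor PU.1, was the only one to pass the adjusted threshold. It had 56.2, 59.7 and 58.9 CPM in WT and 36.3, 31.9 and 37.5 CPM in KO lines and fell by 0.73 on the log2 scale (SE 0.08, edgeR adjusted p = 0.0357). With the Y-linked term the log2 difference was -0.74 and the adjusted p 0.240. Irf8, another factor of myeloid cells, had 38.1, 36.7 and 30.1 against 21.3, 19.8 and 15.2 CPM (-0.90, SE 0.156, edgeR adjusted p = 0.0801). Of the NF-Y subunits, Nfya was lower (69.9 to 76.3 against 50.02 to 61.1 CPM, -0.42, SE 0.0896, edgeR adjusted p = 0.128). Nfyb was higher (17.3 to 19.0 against 19.3 to 23.9 CPM, 0.29, SE 0.105, edgeR adjusted p = 0.300). Nfyc overlapped between genotypes (0.16, SE 0.155). Nfyb and Nfyc were named after their values were seen. Nfyb was not past an unadjusted p of 0.05 without WT line 36, WT line 78 or KO line 41 or with the lane in the model. Irf2, a repressor and activator at interferon response elements, stood at -0.25 (SE 0.0845).

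The class-specific coactivators were both low. Nlrc5, the class I coactivator, had 3.90, 5.77 and 4.40 CPM in WT and 3.73, 2.81 and 3.45 CPM in KO lines. Its groups did not overlap, and its log2 difference was -0.49 (SE 0.208, 95% interval -0.998 to 0.01, edgeR adjusted p = 0.350). WT line 47 was highest for Nlrc5, as for H2-K1, H2-D1 and B2m. WT line 78, the lowest WT line for those class I genes, was above WT line 36 for Nlrc5. A link between Nlrc5 and class I RNA was not tested. Ciita, the class II coactivator, lay between 0.174 and 0.621 CPM, with KO line 41 highest and a log2 difference of 0.05 (SE 0.622, edgeR adjusted p = 0.981). KO line 72, the highest line for the class II members, had 0.181 CPM of Ciita. That value rests on 14 counts, and the lines had 14 to 52 Ciita counts each. A link between Ciita and class II RNA was not tested.

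In the interferon gamma receptor path, 2 of 5 tested genes were lower at an unadjusted p under 0.05. Ifngr1, the ligand-binding receptor chain, had 85.8, 85.7 and 94.7 CPM in WT and 66.3, 65.0 and 57.0 CPM in KO lines (log2 difference -0.50, SE 0.083, edgeR adjusted p = 0.0772), and Ifngr2 stood at -0.17 (SE 0.0599). Jak2 (-0.16, SE 0.189) and Socs1 (0.17, SE 0.145) overlapped between genotypes. Of 10 interferon-stimulated genes none was past an unadjusted p of 0.05 in either direction. Their log2 differences ran from -0.53 to 0.34, with 5 of 10 below 0. KO line 33 held the highest value of several of them, such as Isg15 (11.9 against 3.90 to 7.35 CPM) and Irf7 (13.8 against 3.82 to 6.76 CPM). Without that line 3 of 10 were lower at an unadjusted p under 0.05, against 8.17% of all tested genes in that fit, and the median was -0.56. Among 7 tested genes of co-stimulation and presenting cells, Cd83 (-1.54, SE 0.47), Cd86 (-0.67, SE 0.208) and Cd40 (-0.75, SE 0.283) were lower at an unadjusted p under 0.05, without overlap and with adjusted p-values of 0.230 to 0.310 in the edgeR test. By that rule 0 of the 7 were lower without WT line 47, against 6.17% of all tested genes. The number was 1 without WT line 36, against 6.73%, and 1 with the lane in the model, against 4.91%. With the Y-linked term Cd83 stood at -0.93 (SE 0.606), Cd86 at -0.56 (SE 0.303) and Cd40 at -0.57 (SE 0.405).

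**Figure D4:**
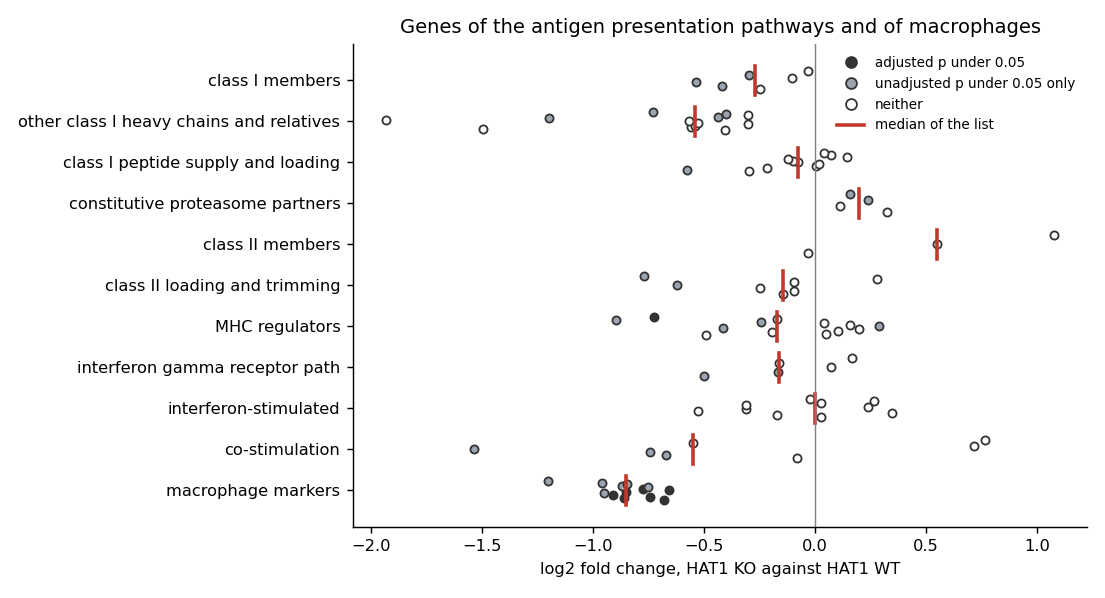
Log2 fold change of HAT1 KO against HAT1 WT for the tested genes of 11 lists; each point is 1 gene, its fill gives the edgeR call (black for an adjusted p under 0.05, grey for an unadjusted p under 0.05 only, white for neither) and the red bar is the list's median. Among the lists drawn, medians ran from -0.85 for the macrophage markers, 13 of 13 lower at an unadjusted p under 0.05, to 0.55 for the 3 tested class II members.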

How the data were processed

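The authors deposited one table of counts that had not been normalized, with 1 column of reads per gene for each of the 6 libraries. It also held their own genotype comparison, not used here: a deposited log2 fold change and log2 mean CPM, an F score, and a p-value with a q-value for each gene. The submitters' processing notes name edgeR and mm10, and the aligner, counter and use of strand are not given in the sources used here. Libraries were made with a TruSeq kit that does not mark strand, and 24.9% of the exonic bases of Tapbp and 14.1% of those of Tap2 overlap an antisense gene. Of 50-base windows, 9.63% in H2-K1 and 12.8% in H2-D1 also occur in other genes, so these counts may hold reads of relatives.

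The test was edgeR's quasi-likelihood test (version 4.0.16, R 4.3.3, filterByExpr defaults, TMM, glmQLFit and glmQLFTest, genotype alone, two-sided), with Benjamini-Hochberg adjustment over 14773 genes and a threshold of 0.05. Alternatives used DESeq2 1.42.0, limma 3.58.1 (voom), other scalings and filters, terms for lane or Y-linked RNA, halved counts, and each line left out. The test was also run on data simulated from the means, library sizes and dispersion of this fit, with results not given here. Genes were matched by identifier to GENCODE M21, and CPM was divided by merged exon length for comparisons between genes. Counting error weighs most on the class II chains, whose counts were few. The spread between lines (common dispersion 0.0747) weighs on all genes. For Cd74, at 56 to 306 counts per line, the KO lines ran from 0.873 to 3.97 CPM. The members and lists were chosen with earlier results of these data known. Named were all members, Hat1, and up to 4 genes per list with the smallest p-values, with Nlrc5, Ciita, Psmb8, Psmb9, H2-DMa and Ctss in any case. Genes named outside this rule (Nfyb, Nfyc, Ctsl, H2-Q7, H2-T22 to H2-T24, H2-DMb1, H2-DMb2, H2-Ob, Isg15, Irf7 and markers in KO line 72) were chosen after their values were seen. All 6 sample columns were mapped by line number.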

Additional observations from a re-analysis of the deposited data

How the results depend on the processing

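No paired analysis was possible because the genotypes share no line numbers. Across 15 alternative fits, H2-K1, H2-D1, B2m and Tap2 kept a log2 difference below 0 and Cd74 kept one above 0. Tap1 turned to 0.011 and Tapbp to 0.21 with the Y-linked term. Leaving out each line in turn gave -0.17 to 0.062 for Tapbp, -1.60 to 0.45 for H2-Ab1 and -0.16 to 0.99 for H2-Eb1, which crossed 0. The lowest values of both chains came without KO line 72.

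The count of members past the adjusted threshold was 0 in every fit except the DESeq2 Wald test, where it was 1. Of the 3 members lower at an unadjusted p under 0.05, 1 was left with the Y-linked term, and between 2 and 4 were counted without a line, 2 without WT line 47 or KO line 41 and 4 without KO line 72. Of all tested genes, 6.17% were lower by that rule without WT line 47, 8.52% without KO line 41 and 9.61% without KO line 72. Members higher by that rule numbered 0 to 1 without a line, the 1 being Cd74 without KO line 41. Over all genes, 78 passed the adjusted threshold, against 869 with DESeq2, 267 with voom, 46 with no filter, 2 with the lane, 0 with the Y-linked term and 0 to 73 without a line, with 0 without WT line 36, WT line 47 or KO line 33. With the Y-linked term Hat1 and Spi1 were no longer called, at log2 differences of -0.98 and -0.74 against -0.99 and -0.73 with genotype alone, so these lost calls came without a smaller difference. The SEs of Hat1 and Spi1 were 0.172 and 0.115 with that term, against 0.119 and 0.08 with genotype alone. The cause of the lost calls was not tested. The log2 ratio of class I to class II in WT was 8.85 as a difference of medians over all members of each class. The chains' depth of 16 to 102 counts per line and the spread between lines limit every class II statement.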

Other observations

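The genes whose log2 CPM followed the heavy chains and Cd74 most closely over the 6 lines were looked up across all tested genes, as a description over few points that share libraries. For the sum of H2-K1 and H2-D1 they were F2rl2 (Pearson r 0.987), Dcaf7 (0.986), Dnajc7 (0.983), Ptpn18 (0.982) and Mylpf (0.9749), and none was a gene of the lists above. For Cd74 they were Ercc1 (0.989), Ifi30 (0.988), Gsr (0.987), Shank2 (0.984) and Ciapin1 (0.984), of which Ifi30, the lysosomal reductase of class II antigen processing, was in the class II loading list. Ifi30 had 28.8, 28.4 and 37.2 CPM in WT lines 36, 47 and 78 and 41.5, 27.9 and 44.9 CPM in KO lines 33, 41 and 72. WT line 78, KO line 33 and KO line 72 were its 3 highest lines, as they were for Cd74. Ifi30 was picked for its likeness to Cd74 among all tested genes, so the shared order of lines adds no separate evidence.

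Markers of other cell types were also read. Of 4 tested endothelial markers, 2 were lower in KO lines at an unadjusted p under 0.05, against 8.77% of all tested genes. Their summed level was 11.4 to 12.6 CPM in WT and 8.91 to 12.4 CPM in KO lines. The T cell markers analysed, 2 genes, both reached 0 in at least 1 line and summed to at most 0.505 CPM. Epithelial markers summed to 1.07 to 2.14 CPM in all lines.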
